A study of Mus with 15 samples.

Results

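Described here are 9 genes that place, keep, read or remove methyl groups on DNA: the ten-eleven translocation dioxygenases Tet1, Tet2 and Tet3, the methyltransferases Dnmt1, Dnmt3a and Dnmt3b, the maintenance partner Uhrf1, the glycosylase Tdg and the methyl-CpG reader Mbd2. They were taken by symbol from a table of 55573 mouse genes, with earlier results of these data known. All 9 were found, and all 9 were among the 16069 genes that passed the filter on low counts. The libraries are bulk RNA-seq of sorted thymocytes from 6-week-old female mice of the strain C57Bl/6 x Foxp3-GFP, so every group carries the Foxp3-GFP reporter. Dissociated thymus was depleted of CD8+ cells on magnets, and every gate took live TCRb+ CD4+ CD8- CD73- cells. With Bst2-negative cells, 4 gates were set by CD25 (the interleukin-2 receptor alpha chain) and FOXP3 (the transcription factor of regulatory T cells, Tregs): conventional CD4 single-positive (CD4SP) cells that were CD25- Foxp3-, CD25+ progenitors that were CD25+ Foxp3-, FOXP3lo progenitors that were CD25- Foxp3lo, and mature Tregs that were CD25+ Foxp3+. The fifth gate took Bst2+ cells that were CD25+, Foxp3+ or both, so it can hold several Treg-lineage stages. Each gate has 3 libraries, from the biological replicates numbered 40, 42 and 43 of 1 sort experiment. The labels do not say whether a replicate is 1 mouse or a pool, so p-values measure the spread between these libraries.

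DNMT3A and DNMT3B add methyl groups to unmodified CpG sites, and DNMT1, guided by UHRF1 to newly replicated DNA, copies the pattern onto the daughter strand. TET enzymes oxidise the methyl group, and TDG excises the oxidised bases so that repair can put back an unmodified cytosine. MBD2 binds methylated CpG and brings in the nucleosome remodelling and deacetylase (NuRD) complex. Tregs are known for demethylated regions in Foxp3, Il2ra, Ctla4, Ikzf2, Ikzf4 and Tnfrsf18, which form during thymic development. At Foxp3 this is known to need TET activity. Only transcripts were measured here: no methylation and no enzyme activity. In bulk RNA, more cells expressing a gene and more RNA per cell cannot be told apart.

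The libraries hold 10816064 to 23758157 counts on genes. All 10 markers of alpha-beta T cells were detected in every gate, with mean summed levels of 4806 CPM (counts per 1000000 counts, scaled by TMM factors) in conventional cells, 4369 in FOXP3lo progenitors, 3902 in the Bst2+ gate, 3578 in CD25+ progenitors and 3326 in mature Tregs. Against conventional cells 9 of the 10 were called lower in mature Tregs and 8 in CD25+ progenitors, where 5.73% and 5.66% of all genes tested were. The 3 Bst2+ libraries stand apart. Their biological coefficient of variation was 0.949, against 0.15 to 0.24 in the other gates. Their 7 macrophage markers summed to 545.5 to 951.4 CPM, against at most 4.079 CPM in any other library. Of these markers C1qa was at 0 in conventional cells, 3 were at 0 in CD25+ progenitors and 4 in mature Tregs. In the Bst2+ libraries the 7 markers of CD4+ CD8+ double-positive thymocytes summed to 758 to 1314 CPM. Among the other gates these markers were highest in CD25+ progenitors, at 157.7 to 204.7 CPM, against 53.11 to 92.62 CPM in conventional cells, 37.72 to 42.21 CPM in mature Tregs and 20.05 to 24.89 CPM in FOXP3lo progenitors. In CD25+ progenitors 4 of the 7 were called higher and 0 lower than in conventional cells (5.98% and 5.66% of all genes tested). Against FOXP3lo progenitors 5 were higher and 0 lower (9.93% and 9.17%). Fitted on the 12 libraries outside the Bst2+ gate, 4 were higher and 1 lower than in conventional cells (29% of all genes in either direction). In that fit 7 were higher and 0 lower than in FOXP3lo progenitors (39.5%). Rag1, of the V(D)J recombinase, had 57.85 ± 15.95 CPM (SD, n = 3) in CD25+ progenitors and 2.241 ± 0.4252 CPM in FOXP3lo progenitors, and was chosen here after its values were seen. This marker difference stands beside every result on CD25+ progenitors below, and its part in them was not tested. Because the 15 libraries share 1 estimate of spread in the test, each comparison among the other gates was also fitted on their 12 libraries alone. In both fits a gene is called where its p from edgeR's quasi-likelihood test, adjusted over all genes tested, is under 0.05. A difference is given as log2 fold change ± its standard error (SE).

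In CD25+ progenitors against conventional cells 5 of the 9 genes were called: Tet2, Dnmt3a, Uhrf1 and Tdg higher, where 5.98% of all genes tested were called higher, and Tet1 lower, where 5.66% were (11.6% in either direction). In FOXP3lo progenitors against conventional cells 4 were called, Tet2 and Tet3 higher and Dnmt1 and Uhrf1 lower (4.88% of all genes were called higher, 3.83% lower and 8.71% in either direction). In mature Tregs against conventional cells 4 were called, Tet3 higher and Tet1, Dnmt1 and Uhrf1 lower (6.45, 5.73 and 12.2% of all genes, in the same order). Between the 2 progenitor gates Tet2, Dnmt1, Dnmt3b, Uhrf1 and Tdg were higher in CD25+ than in FOXP3lo progenitors and Tet3 and Mbd2 lower, 7 of 9 (9.93, 9.17 and 19.1% of all genes). Mature Tregs against CD25+ progenitors also gave 7 calls, with Tet3 and Mbd2 higher and Tet1, Tet2, Dnmt1, Uhrf1 and Tdg lower (6.78, 6.26 and 13% of all genes). Against FOXP3lo progenitors, mature Tregs gave 2 calls, Uhrf1 higher and Tet1 lower (2.51, 2.21 and 4.72% of all genes).

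The median of the 9 log2 fold changes was 0.42, -0.06, -0.16, 0.58, -0.53 and -0.01 in these 6 comparisons in that order, where the median over all genes tested was between -0.02 and 0.00. Comparisons that share a gate share its 3 libraries. The shares called should be read with the abundance of the genes: 8 of the 9 have a mean level of 43.82 CPM or more over the 15 libraries, and Dnmt3b has 14.05 CPM, where the median gene tested has 11.92 CPM. In the fit on 12 libraries the counts were 6, 6, 7, 8, 9 and 2 of 9, while 29, 25.1, 30.4, 39.5, 32.7 and 18.7% of all genes were called.

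**Figure D1:**
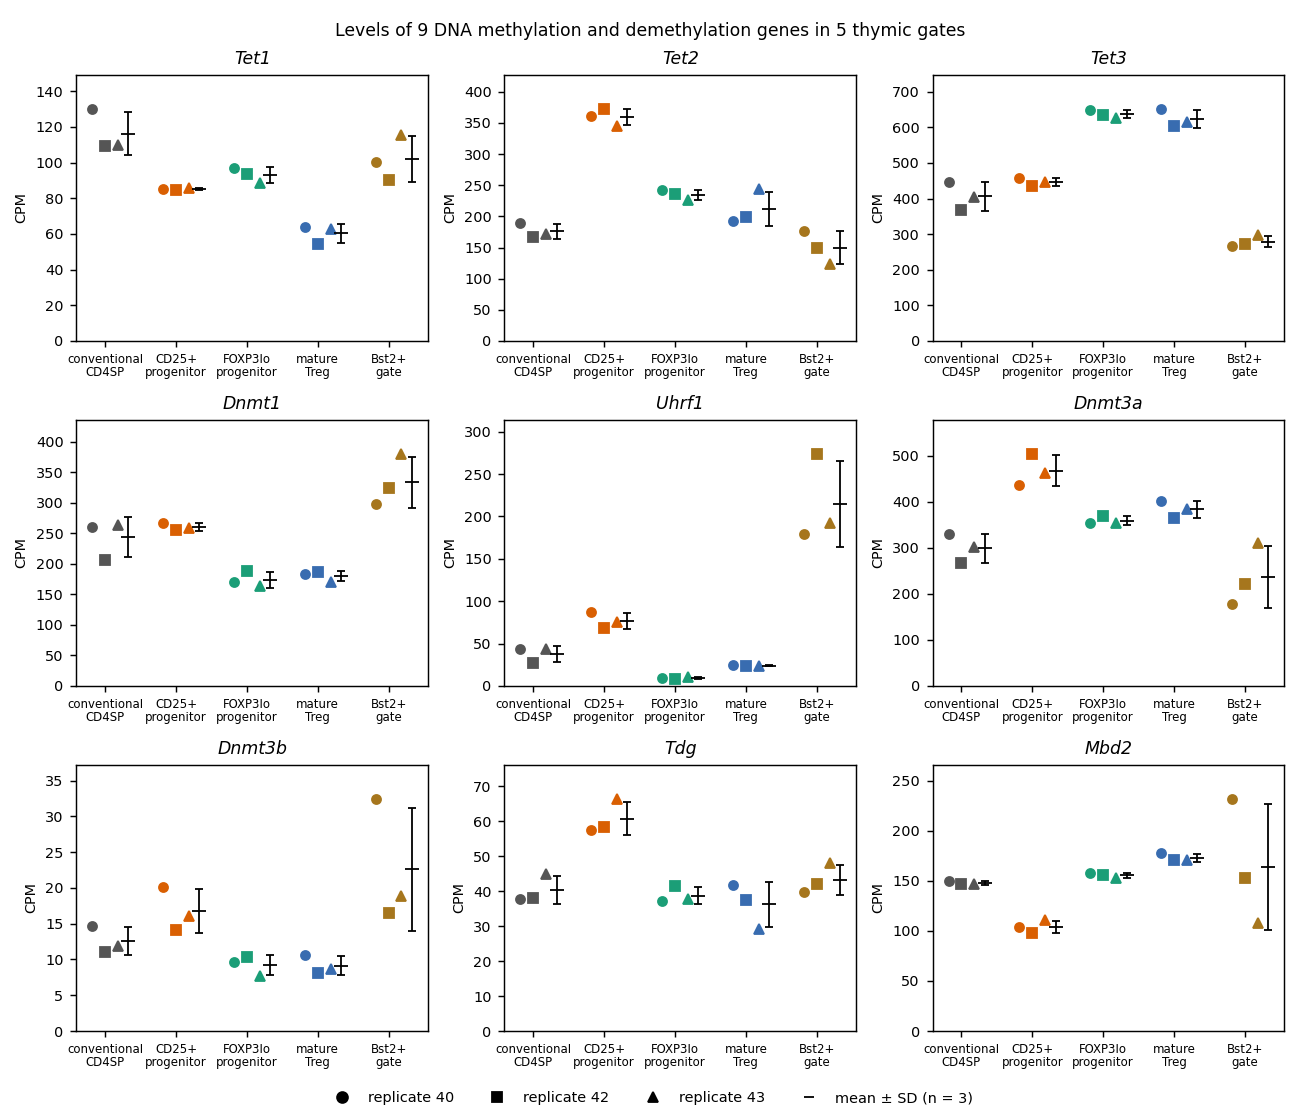
Level in CPM of each of the 9 genes (panels) in each gate (horizontal axis); symbols are single libraries, 1 shape per replicate, with the mean ± SD of 3 beside them. Tet2, Uhrf1, Tdg and Dnmt3a are highest in CD25+ progenitors among the Bst2-negative gates, Tet3 is highest in the 2 FOXP3 gates, and mean Uhrf1 ranges from 8.89 CPM in FOXP3lo progenitors to 214.9 CPM in the Bst2+ gate.

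**Figure D2:**
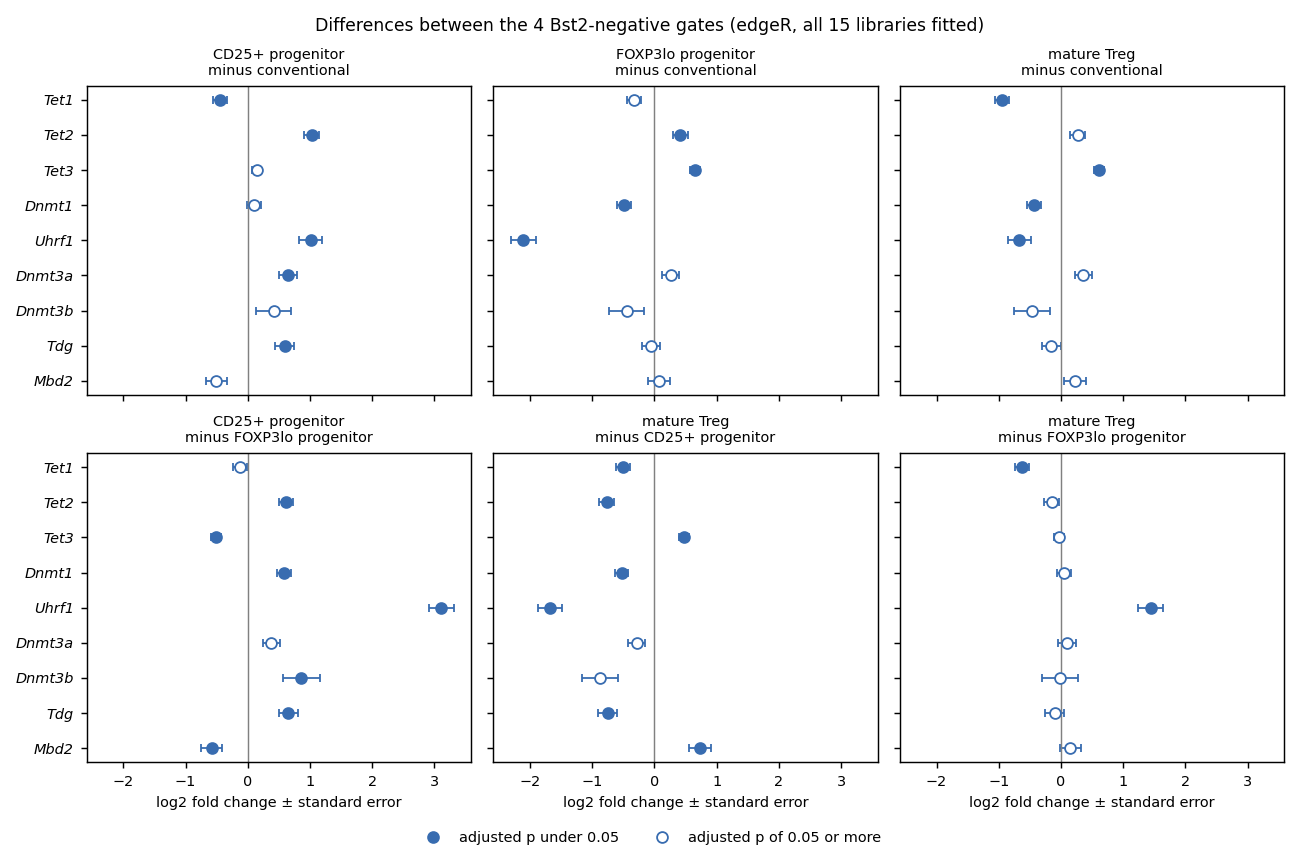
Log2 fold change ± standard error (horizontal axis) of each gene in the 6 comparisons between Bst2-negative gates (panels); filled circles have an adjusted p under 0.05. Uhrf1 spans the widest range, from -2.11 to 3.11, and Tet2 and Tet3 take opposite signs between CD25+ and FOXP3lo progenitors.

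Tet2 was the TET gene that stood out in CD25+ progenitors. The gene lies on chromosome 3, 133463679 to 133545139, minus strand (GRCm38, as are all positions here), with 16870 exonic bases in 14 exon blocks. In the order of replicates 40, 42 and 43, its level was 189.5, 167.6 and 171 CPM in conventional cells. It was 362, 372 and 345.5 CPM in CD25+ progenitors, 242.3, 236.6 and 226.3 CPM in the FOXP3lo gate, and 192.8, 198.7 and 243.5 CPM in mature Tregs. All CD25+ progenitor libraries lay above every other library, and those of the conventional gate lay below every other Bst2-negative library.

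Against conventional cells Tet2 was 1.03 ± 0.12 higher in CD25+ progenitors (adjusted p = 1.13e-05) and 0.61 ± 0.12 higher than in FOXP3lo progenitors (adjusted p = 9.92e-04). It fell by 0.77 ± 0.12 from CD25+ progenitors to mature Tregs (adjusted p = 2.26e-04). FOXP3lo progenitors were 0.42 ± 0.12 above conventional cells (adjusted p = 0.0334). That call was lost without any 1 of 10 libraries: each CD25+ and each FOXP3lo progenitor library, conventional replicates 42 and 43, and mature replicates 40 and 42. The difference then stayed between 0.37 and 0.44. On 12 libraries it was 0.42 (adjusted p = 2.96e-05). Mature Tregs differed from conventional cells by 0.27 ± 0.12 (adjusted p = 0.181, or 0.00528 on 12 libraries). In the order CD25+ progenitors, FOXP3lo progenitors, mature Tregs and conventional cells, only the neighbours in the middle were uncalled in both fits.

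Tet3 was highest in the gates that express FOXP3. The gene spans chromosome 6, 83362373 to 83459084, minus strand, with 16695 exonic bases, and 2 other annotated genes overlap it on its own strand. Its levels were 447.8, 367.2 and 403.2 CPM in conventional cells and 457.8, 436.3 and 448 CPM in CD25+ progenitors. They were 649.3, 636.2 and 625.6 CPM in FOXP3lo progenitors and 650.9, 602.8 and 614.9 CPM in mature Tregs. The 6 libraries of the FOXP3 gates lay between 602.8 and 650.9 CPM, above all 6 libraries of the gates without FOXP3, which reached at most 457.8 CPM.

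Against conventional cells Tet3 rose by 0.65 ± 0.078 in FOXP3lo progenitors (adjusted p = 2.73e-05) and by 0.62 ± 0.078 in mature Tregs (adjusted p = 2.78e-05). It was 0.51 ± 0.078 lower in CD25+ than in FOXP3lo progenitors (adjusted p = 1.27e-04), the reverse of Tet2. The difference between CD25+ progenitors and conventional cells was 0.14 ± 0.078 (adjusted p = 0.348) and that between mature Tregs and FOXP3lo progenitors -0.03 (adjusted p = 0.975).

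Tet1 had its lowest level in mature Tregs. The gene spans chromosome 10, 62804570 to 62908996, minus strand, with 15457 exonic bases, and 2 annotated genes overlap it on its strand. Conventional cells had 129.9, 109.4 and 109.6 CPM, FOXP3lo progenitors 97.17, 93.66 and 88.49 CPM, and CD25+ progenitors 85.28, 84.65 and 85.92 CPM. Mature Tregs had 63.95, 54.12 and 62.92 CPM, below every library of the other gates.

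From conventional cells to mature Tregs Tet1 fell by 0.95 ± 0.12 (adjusted p = 1.84e-05), to 60.33 ± 5.402 CPM (SD, n = 3) from 116.3 ± 11.8 CPM. Mature Tregs were also 0.63 ± 0.12 below FOXP3lo progenitors (log2 fold change -0.63, adjusted p = 0.00312) and 0.50 ± 0.11 below CD25+ progenitors (log2 fold change -0.50, adjusted p = 0.0066). CD25+ progenitors were below conventional cells by a log2 fold change of -0.45 ± 0.11 (adjusted p = 0.0143). Without conventional replicate 40 that difference was -0.36 (adjusted p = 0.104), and without any 1 of the CD25+ progenitor libraries it was -0.44 to -0.45 with adjusted p of 0.0511 to 0.06. On 12 libraries it was -0.45 (adjusted p = 6.98e-05). The step between conventional cells and FOXP3lo progenitors was -0.32 (adjusted p = 0.1, or 0.0041 on 12 libraries), and that between FOXP3lo and CD25+ progenitors was not called in either fit (0.13 lower, log2 fold change -0.13, adjusted p = 0.553).

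Per kilobase of exon, Tet3 was the most abundant TET transcript in every gate and Tet1 the least. The sum of the 3 genes was 42.3 ± 3.8 RPKM (CPM per kilobase of exon; SD, n = 3) in the conventional gate, 53.6 ± 0.761 in CD25+ progenitors, 58.1 ± 1.47 in the FOXP3lo gate and 53.8 ± 2.09 in mature Tregs. Tet2 made up 39.8 ± 1.21% of this sum in CD25+ progenitors (38.7 to 41.1%). Its share was 24.7 ± 0.674% in the conventional gate, 24 ± 0.239% in the FOXP3lo gate and 23.3 ± 2.59% in mature Tregs. Tet3 made up 50% in CD25+ progenitors, 57.5% in the conventional gate, 65.7% in the FOXP3lo gate and 69.4% in mature Tregs. The sums in the CD25+ and mature gates lay close together while their makeup differed: one held more Tet2, the other more Tet3 and less Tet1.

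**Figure D3:**
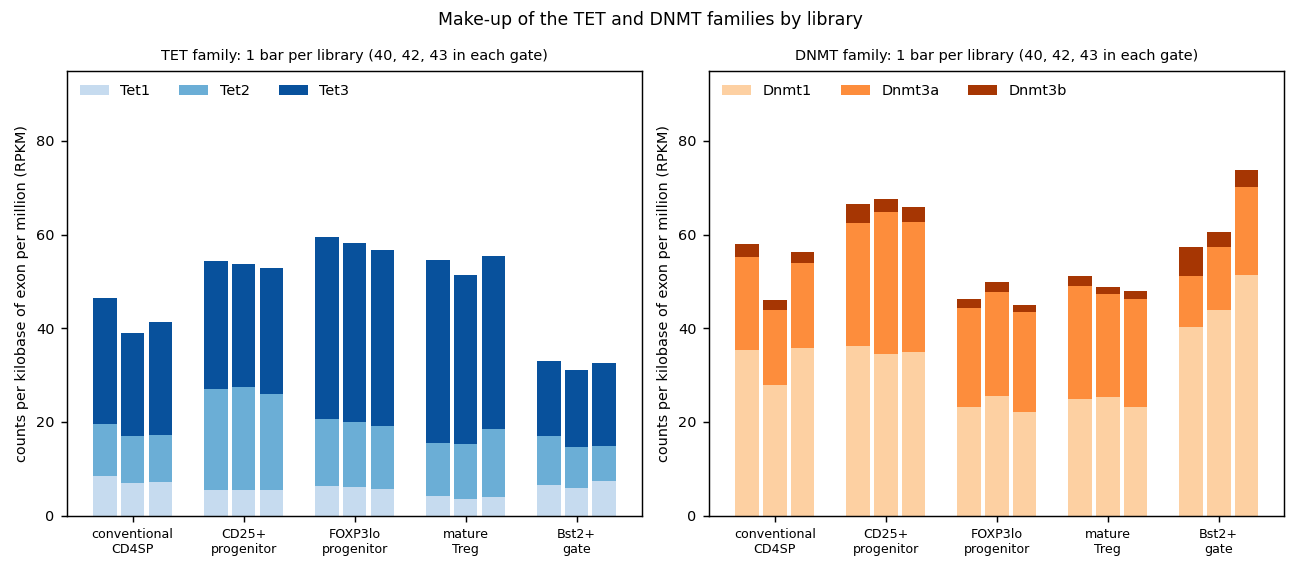
Stacked RPKM of Tet1, Tet2 and Tet3 (left) and of Dnmt1, Dnmt3a and Dnmt3b (right), 1 bar per library in the order of replicates 40, 42 and 43 within each gate. The Tet2 segment is tallest in CD25+ progenitors, at 39.8% of the TET sum, and the Dnmt1 segment in the Bst2+ gate, at 70.9% of the DNMT sum.

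Uhrf1, which finds hemimethylated DNA behind the replication fork, had the widest range of the 9 genes. Its locus is on chromosome 17, 56303321 to 56323486, plus strand, with 4259 exonic bases. Conventional cells had 43.4, 27.41 and 43.76 CPM and CD25+ progenitors 86.94, 68.4 and 75.65 CPM. FOXP3lo progenitors had 8.871, 7.656 and 10.14 CPM, which rest on 154, 137 and 185 counts, and mature Tregs 24.73, 23.6 and 23.95 CPM. The 4 gates did not overlap in any library. The highest mean was 8.66 times the lowest, where the same ratio was between 1.49 and 2.04 for the other 8 genes.

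Uhrf1 was 3.11 ± 0.20 higher in CD25+ than in FOXP3lo progenitors, an 8.65-fold difference (adjusted p = 1.21e-08). It was 1.01 ± 0.19 above conventional cells in CD25+ progenitors (adjusted p = 0.00118) and fell by 2.11 ± 0.20 in FOXP3lo progenitors (adjusted p = 2.17e-06). Mature Tregs lay 1.44 ± 0.20 above FOXP3lo progenitors (adjusted p = 2.55e-04) and differed from conventional cells by -0.67 ± 0.19 (adjusted p = 0.0261). The last call was lost without conventional replicate 40 (-0.57), conventional replicate 43 (-0.56) or any 1 of the mature libraries (-0.67 to -0.71). On 12 libraries that difference was -0.67 (adjusted p = 2.5e-04).

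Dnmt1, the maintenance methyltransferase, moved in the same direction over a smaller range. Its locus is on chromosome 9, 20907209 to 20959888, minus strand, with 7377 exonic bases in 39 exon blocks; the microRNA gene Mir7081 lies within it on the same strand. Its levels were 260.4, 205.8 and 263.9 CPM in conventional cells and 267.4, 254.7 and 258 CPM in CD25+ progenitors. They were 170.4, 188.8 and 163.5 CPM in FOXP3lo progenitors and 183.9, 187 and 171 CPM in mature Tregs. The gates fall into a higher pair and a lower pair, with the libraries of each pair overlapping.

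Dnmt1 was 0.58 ± 0.11 higher in CD25+ than in FOXP3lo progenitors (adjusted p = 8.01e-04) and fell by 0.53 ± 0.11 from CD25+ progenitors to mature Tregs (adjusted p = 0.00269). Against conventional cells it was lower by a log2 fold change of -0.48 ± 0.11 in FOXP3lo progenitors (adjusted p = 0.00754) and -0.43 ± 0.11 in mature Tregs (adjusted p = 0.0118). The first of these was -0.42 without conventional replicate 43 (adjusted p = 0.0571) and -0.44 without FOXP3lo replicate 43 (adjusted p = 0.0539). The second was -0.38 without conventional replicate 40 (adjusted p = 0.066) and -0.37 without conventional replicate 43 (adjusted p = 0.0762). On 12 libraries they were -0.48 (adjusted p = 4.43e-06) and -0.43 (adjusted p = 2.33e-05). Within the pairs the differences were 0.10 ± 0.11 for CD25+ progenitors over conventional cells (adjusted p = 0.76) and 0.05 for mature Tregs over FOXP3lo progenitors (adjusted p = 0.97).

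The mean levels of both maintenance genes ranked the Bst2-negative gates as the summed DNA replication transcripts did. A list of 18 replication genes (the MCM helicase, GINS, CDC45 and nucleotide synthesis genes among them) summed to 663.5 to 721.5 CPM in the conventional gate, 1008 to 1063 CPM in CD25+ progenitors, 420.1 to 435 CPM in the FOXP3lo gate and 581.8 to 598.6 CPM in mature Tregs. Of the 18, 16 were called higher in CD25+ than in FOXP3lo progenitors and 0 lower, where 9.93% of all genes were higher and 9.17% lower. The 13 mitotic genes fell into a higher and a lower pair of gates, as Dnmt1 did: they summed to 512.4 to 589.3 CPM in conventional cells and 438.4 to 617.7 CPM in CD25+ progenitors, against 162.8 to 180.4 CPM in FOXP3lo progenitors and 146 to 184.7 CPM in mature Tregs. Against conventional cells 7 of the 13 were called lower in FOXP3lo progenitors and 8 in mature Tregs, where 3.83% and 5.73% of all genes were. Over the 12 libraries the correlation of log2 CPM with the log2 sum was 0.99 for Uhrf1, 0.86 for Dnmt1, 0.83 for Dnmt3b, 0.75 for Tdg, 0.53 for Tet2, 0.47 for Dnmt3a and 0.06 for Tet1, and -0.72 for Tet3 and -0.80 for Mbd2. These points share 4 gates of 3 libraries, so the values describe the order of the gates. The ratio of Uhrf1 to the replication sum was not constant: Uhrf1 equalled 5.43 ± 1.12% of that sum in the conventional gate, 7.47 ± 0.698% in CD25+ progenitors, 2.09 ± 0.255% in the FOXP3lo gate and 4.07 ± 0.11% in mature Tregs (SD, n = 3). Dnmt1 equalled 34.7 ± 3.23, 25.3 ± 0.102, 41 ± 3.7 and 30.5 ± 0.968% in the same gates, highest in FOXP3lo and lowest in CD25+ progenitors. The part of cycling cells in these differences was not tested.

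**Figure D4:**
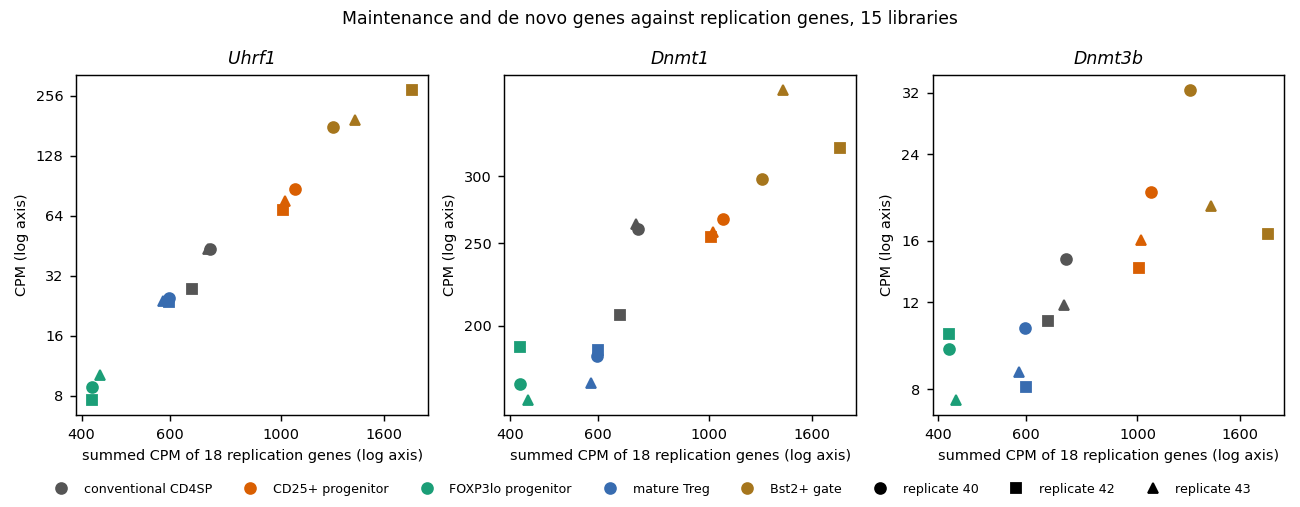
Level in CPM of Uhrf1, Dnmt1 and Dnmt3b (vertical axes, log scale) against the summed CPM of 18 replication genes (horizontal axes, log scale), 1 point per library, coloured by gate and shaped by replicate. Mean Uhrf1 climbs from 8.89 CPM in FOXP3lo progenitors, which have the lowest replication sums, to 214.9 CPM in the Bst2+ gate, which has the highest, and mean Dnmt1 from 174.2 to 333.8 CPM.

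Dnmt3a, the de novo enzyme with the higher level in every gate, was highest in CD25+ progenitors. The gene spans chromosome 12, 3806007 to 3914443, plus strand, with 16642 exonic bases; the antisense gene Dnmt3aos overlaps it on the other strand, which the strand-aware counting keeps apart. Its levels were 330.2, 266.9 and 301.7 CPM in the conventional gate, 437.9, 503.6 and 462.7 CPM in CD25+ progenitors, 354.7, 369.9 and 354.3 CPM in the FOXP3lo gate, and 402.6, 364.9 and 384.8 CPM in mature Tregs. The CD25+ progenitor libraries lay above all others and the conventional ones below all other Bst2-negative libraries, while FOXP3lo and mature libraries overlapped.

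Dnmt3a exceeded its conventional level by 0.64 ± 0.14 in CD25+ progenitors (adjusted p = 0.00505), its only call among these gates with 15 libraries. The differences were 0.38 ± 0.14 against FOXP3lo progenitors (adjusted p = 0.0729), and -0.29 ± 0.14 from CD25+ progenitors to mature Tregs (adjusted p = 0.237). Against conventional cells they were 0.36 ± 0.14 in mature Tregs (adjusted p = 0.124) and 0.26 in FOXP3lo progenitors (adjusted p = 0.354). On 12 libraries these 4 differences had the same values to 2 decimals and were called, with adjusted p of 1.92e-05, 0.00122, 8.00e-05 and 0.00386 in that order. Mature Tregs and FOXP3lo progenitors differed by 0.09 (adjusted p = 0.931) and were not called in either fit.

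Dnmt3b, the other de novo enzyme, was far less abundant. The gene spans chromosome 2, 153649450 to 153687730, plus strand, with 5106 exonic bases. Its libraries held 117 to 364 counts each. Means were 12.54 ± 1.938 CPM in the conventional gate, 16.77 ± 3.034 in CD25+ progenitors, 9.212 ± 1.417 in the FOXP3lo gate and 9.143 ± 1.343 in mature Tregs (SD, n = 3). CD25+ progenitor libraries (20.09, 14.13 and 16.09 CPM) overlapped those of conventional cells (14.72, 11.02 and 11.88 CPM) and lay above every FOXP3lo library (9.677, 10.34 and 7.621 CPM).

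Dnmt3b was 0.86 ± 0.29 higher in CD25+ than in FOXP3lo progenitors (adjusted p = 0.0427). The call was lost without any 1 of the 12 Bst2-negative libraries, with values of 0.74 to 0.97, and with no filter on low counts (0.87, adjusted p = 0.149). In the fit on those 12 libraries alone the difference was 0.86 (adjusted p = 9.47e-04). From CD25+ progenitors to mature Tregs the difference was -0.88 ± 0.29 (adjusted p = 0.054); with the replicate number as a block it was -0.87 (adjusted p = 0.0356) and on 12 libraries -0.88 (adjusted p = 0.00122). Genes named as pseudogene copies of Dnmt3a and Dnmt3b are annotated; how alike their sequences are was not measured, and any shared reads could be lost or misassigned.

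Of the summed RPKM of the 3 methyltransferases, Dnmt1 made up 61.7% in the conventional gate, 52.9% in CD25+ progenitors, 50.2% in the FOXP3lo gate and 49.6% in mature Tregs. Dnmt3a made up 33.7, 42.2, 46 and 46.8%, and Dnmt3b 4.6, 4.93, 3.83 and 3.62% in the same gates. The sum was highest in CD25+ progenitors at 66.7 ± 0.828 RPKM, against 53.4 ± 6.43 in the conventional gate, 47 ± 2.53 in the FOXP3lo gate and 49.4 ± 1.65 in mature Tregs.

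Tdg, the glycosylase that removes TET-oxidised cytosines, was highest in CD25+ progenitors, as Tet2 was. It lies on chromosome 10, 82629828 to 82650799, plus strand, with 5374 exonic bases, and Glt8d2 overlaps it on the other strand. Its levels were 57.55, 58.45 and 66.23 CPM in CD25+ progenitors, above all other libraries. They were 37.86, 38.13 and 44.8 CPM in the conventional gate, 37.04, 41.41 and 37.72 CPM in the FOXP3lo gate, and 41.8, 37.58 and 29.13 CPM in mature Tregs, and these 3 gates overlapped.

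CD25+ progenitors exceeded FOXP3lo progenitors in Tdg by 0.65 ± 0.15 (adjusted p = 0.00493), and mature Tregs lay below CD25+ progenitors by a log2 fold change of -0.75 ± 0.15 (adjusted p = 0.00258). Over conventional cells the difference was 0.59 ± 0.15 (adjusted p = 0.0144), a call lost without conventional replicate 40 (0.55, adjusted p = 0.0819), conventional replicate 42 (0.57, adjusted p = 0.0685) or CD25+ progenitor replicate 43 (0.53, adjusted p = 0.088). On 12 libraries it was 0.595 (adjusted p = 1.14e-04). None of the other 3 pairs was called in either fit, with differences of -0.06 to -0.16. Pseudogene copies of Tdg are annotated, so its counts carry the same uncertainty as those of Dnmt3a.

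Mbd2, the methyl-CpG reader, was the gene that was lowest in CD25+ progenitors. It lies on chromosome 18, 70568189 to 70626131, plus strand, with 3214 exonic bases. Its levels were 103.5, 97.88 and 110.6 CPM in CD25+ progenitors, below every library of the other 3 gates. They were 149.8, 146.4 and 146.8 CPM in the conventional gate, 157.9, 155.9 and 153 CPM in the FOXP3lo gate, and 177.4, 170.4 and 170.4 CPM in mature Tregs. The 4 gates did not overlap.

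Mature Tregs exceeded CD25+ progenitors in Mbd2 by 0.73 ± 0.18 (adjusted p = 0.0087). CD25+ progenitors lay below FOXP3lo progenitors by a log2 fold change of -0.58 ± 0.17 (adjusted p = 0.0261). The second call was lost without any 1 of 10 libraries: conventional replicate 42 or any CD25+, FOXP3lo or mature library, with values of -0.54 to -0.63. On 12 libraries it was called, at -0.58 (adjusted p = 9.45e-09). Against conventional cells the difference was -0.51 ± 0.17 (adjusted p = 0.0758, or 2.89e-07 on 12 libraries). In the Bst2+ gate Mbd2 varied more than in any other, at 231.5, 152.4 and 107.9 CPM, and those libraries enter the shared spread. Mature Tregs differed from conventional cells by 0.23 (adjusted p = 0.546, or 0.0124 on 12 libraries).

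Because CD25 and FOXP3 were each gated high and low, the difference between CD25+ and CD25- cells could be compared between FOXP3 gates and gates without FOXP3. The FOXP3 level itself differs between FOXP3lo progenitors and mature Tregs, so this is not a clean crossing. Tet2 was the 1 gene of the 9 called for this interaction, with a negative value (1.16% of all genes tested had a negative call, 1.19% a positive one and 2.35% either). It was 1.03 higher with CD25 in the gates without FOXP3 and -0.15 in the FOXP3 gates (adjusted p = 0.72), a difference of -1.18 ± 0.17 (adjusted p = 5.17e-04). On 12 libraries 4 of 9 were called (10.9% of all genes), with Dnmt3a at -0.55 (adjusted p = 8.06e-05), Tdg at -0.70 (adjusted p = 0.00394) and Mbd2 at 0.66 (adjusted p = 5.41e-06) beside Tet2. With 15 libraries their adjusted p were 0.263, 0.136 and 0.294. Tet1 had an interaction of -0.18 (adjusted p = 0.996), and the interaction of Uhrf1 was 0.43 (adjusted p = 0.799).

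**Figure D5:**
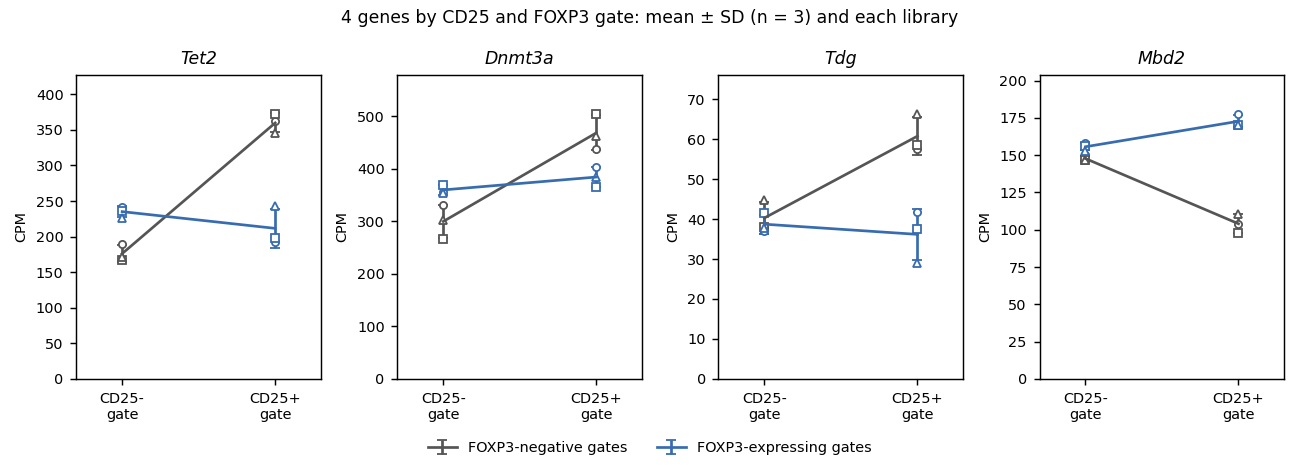
Level in CPM of Tet2, Dnmt3a, Tdg and Mbd2 in the CD25- and CD25+ gates (horizontal axis), with lines joining the means ± SD of 3 libraries for the gates without FOXP3 (conventional cells and CD25+ progenitors) and with it (FOXP3lo progenitors and mature Tregs); open symbols are libraries. Mean Tet2 goes from 176.1 to 359.8 CPM without FOXP3 and from 235.1 to 211.6 CPM with it.

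The Bst2+ gate, set against the mean of the CD25+, FOXP3lo and mature gates, gave calls for 7 of the 9 genes: Tet1, Dnmt1, Dnmt3b and Uhrf1 higher and Tet2, Tet3 and Dnmt3a lower (19.3% of all genes tested were called higher, 19.8% lower and 39.1% in either direction). The spread is shared over all 5 gates, so SE and p here can understate the wider spread of the Bst2+ libraries. Of the 16069 genes, 6286 were called in this fit and 2323 by limma-voom with quality weights. Uhrf1 had 179, 273.3 and 192.3 CPM there and was 3.08 ± 0.14 higher, 8.44-fold (adjusted p = 1.10e-10). Dnmt1 had 297.9, 324.2 and 379.5 CPM and was 0.73 ± 0.084 higher (adjusted p = 4.42e-06). Both lay above every Bst2-negative library. Tet3, at 266.4, 273.1 and 297.7 CPM, was lower by a log2 fold change of -1.01 ± 0.068 (adjusted p = 1.03e-08), and all its Bst2+ libraries lay below every other library.

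Tet2 had 176.9, 149.9 and 123.1 CPM in the Bst2+ gate and a log2 fold change of -0.80 ± 0.10 (adjusted p = 1.06e-05). Dnmt3a had 178.6, 222.5 and 310.5 CPM and -0.76 ± 0.12 (adjusted p = 1.17e-04). Both lay below every library of the 3 gates they were set against. Tet1, at 100.5, 90 and 115.6 CPM, was 0.38 ± 0.092 higher (adjusted p = 0.00332), and Dnmt3b, at 32.39, 16.5 and 18.85 CPM, 1.01 ± 0.22 higher (adjusted p = 0.00174). The libraries of both overlapped those of the other gates, and limma-voom with quality weights called neither (0.37, adjusted p = 0.186, and 0.84, adjusted p = 0.123). Tdg (-0.02, adjusted p = 0.9) and Mbd2 (0.22, adjusted p = 0.239) were not called; without Bst2+ replicate 43 Mbd2 was (0.44, adjusted p = 0.0031).

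Dnmt1 made up 70.9% of the methyltransferase RPKM in the Bst2+ gate and Dnmt3a 22%. The summed TET transcripts, at 32.2 ± 1 RPKM, were the lowest of the 5 gates. Beside these values stand the replication sum of 1271 to 1824 CPM, the mitotic sum of 1357 to 1743 CPM over 13 genes (at most 617.7 CPM in any other library), and the macrophage and double-positive markers given above. All 18 replication and all 13 mitotic genes were called higher, where 19.3% of all genes tested were. Uhrf1 equalled 14.3 ± 0.654% of the replication sum there, above its 2.09 to 7.47% elsewhere. The part of other cell types and of cycling cells in the Bst2+ results was not tested.

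Of 14 listed partners of the methyltransferases, 10 were tested. Dnmt3l and Zfp57 did not pass the filter on low counts. Cdca7l and Trim28 were not matched to a gene by name, so their counts were not read. Cdca7 and Hells together form a remodeller needed to keep DNA methylated. Like Uhrf1, both were highest in CD25+ and lowest in FOXP3lo progenitors among the Bst2-negative gates. Cdca7 had 26.84 ± 4.447 CPM in the conventional gate, 65.1 ± 6.224 in CD25+ progenitors, 10.62 ± 1.505 in the FOXP3lo gate and 28.7 ± 1.767 in mature Tregs (SD, n = 3). It was 2.62 ± 0.16 higher in CD25+ than in FOXP3lo progenitors (adjusted p = 6.40e-09), and Hells 1.78 ± 0.21 higher (adjusted p = 1.09e-05). Of the 10, 3 were called higher and 0 lower in that comparison (9.93% and 9.17% of all genes), the third being Pcna, the replication clamp, at 0.76 ± 0.11 (adjusted p = 1.13e-04). On 12 libraries 5 were higher and 1 lower, where 39.5% of all genes were called in either direction. Against conventional cells 1 was higher in CD25+ progenitors (Cdca7, with 4 on 12 libraries), where 5.98% of all genes were (29% called on 12 libraries). In FOXP3lo progenitors 1 was higher (Ctcf) and 3 were lower (Cdca7, Pcna and Hells), with 4.88% and 3.83% of all genes. In mature Tregs 1 was lower (Pcna, -0.37, adjusted p = 0.0406), with 5.73% of all genes.

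Of 15 tested regulators and cofactor suppliers of TET enzymes, 3 were called higher and 1 lower in CD25+ than in FOXP3lo progenitors (9.93% and 9.17% of all genes). On 12 libraries 6 were higher and 2 lower, where 39.5% of all genes were called. Ogt, the O-GlcNAc transferase that binds TET2 and TET3, had 411.3 ± 28.43 CPM in the conventional gate, 399.2 ± 20.55 in the FOXP3lo gate, 278.7 ± 10.38 in CD25+ progenitors and 295.3 ± 15.41 in mature Tregs. Its log2 fold change against conventional cells was -0.56 ± 0.083 in CD25+ progenitors (adjusted p = 1.50e-04) and -0.48 ± 0.083 in mature Tregs (adjusted p = 6.34e-04). Of the GADD45 adaptors linked to active demethylation, Gadd45b rose by 2.27 ± 0.46 in CD25+ progenitors (adjusted p = 0.00247), from 7.785 to 37.63 CPM. Gadd45g rose by 2.63 ± 0.49 in mature Tregs (adjusted p = 0.00126), from 3.164 to 19.52 CPM. Idh2, which encodes 1 of the mitochondrial enzymes that make the TET cosubstrate 2-oxoglutarate, was lower in mature Tregs (-0.94 ± 0.16, adjusted p = 5.69e-04). Against conventional cells, 2 were higher (Gadd45b and Idh3a) and 1 lower (Ogt) in CD25+ progenitors (5.98% and 5.66% of all genes). Idh3a alone was lower in FOXP3lo progenitors (3.83% of all genes). In mature Tregs 1 was higher, Gadd45g, and 2 were lower, Idh2 and Ogt (6.45% and 5.73% of all genes). On 12 libraries these counts were 5 and 1, 1 and 3, and 3 and 4 (29, 25.1 and 30.4% of all genes).

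Of 12 base excision repair genes, which encode glycosylases other than TDG and the enzymes that act after a base is removed, 5 were called higher in CD25+ than in FOXP3lo progenitors and 0 lower (9.93% and 9.17% of all genes): Parp1, Apex1, Ung, Lig3 and Neil3. On 12 libraries 6 were higher and 0 lower (39.5% of all genes in either direction). Apex1, the endonuclease that cuts after the glycosylase, was 1.62 ± 0.23 higher (adjusted p = 7.20e-05), Ung, the uracil glycosylase, 2.19 ± 0.32 (adjusted p = 8.65e-05) and Parp1, which senses the break, 0.89 ± 0.12 (adjusted p = 3.89e-05). Against conventional cells 1 was higher in CD25+ progenitors (Parp1, with 4 on 12 libraries), where 5.98% of all genes were (29% called on 12 libraries). In FOXP3lo progenitors 3 were lower (Ung, Apex1 and Neil3, with 5 on 12 libraries), where 3.83% of all genes were (25.1% called on 12 libraries). The replication genes given above differed in the same direction between these gates, and their part was not tested.

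Of the 12 NuRD subunit genes, Chd3, a remodelling ATPase, was like Mbd2 lowest in CD25+ progenitors among the Bst2-negative gates. It had 1479 ± 104.9 CPM in the conventional gate, 824.6 ± 30.1 in CD25+ progenitors, 1858 ± 55.78 in the FOXP3lo gate and 1761 ± 111.4 in mature Tregs. Chd3 was lower in CD25+ progenitors than in conventional cells (-0.84 ± 0.087, adjusted p = 3.70e-06) and its interaction of CD25 with FOXP3 was 0.77 ± 0.12 (adjusted p = 0.00148). In CD25+ against FOXP3lo progenitors 5 subunits were higher (Hdac2, Gatad2a, Cdk2ap1, Rbbp7 and Rbbp4) and 3 lower (Chd3, Mta3 and Gatad2b), the same counts as on 12 libraries (9.93% of all genes higher and 9.17% lower on 15). Among 9 other methyl-CpG readers, Zbtb38 was higher than in conventional cells in all 3 Treg-lineage gates, by 0.51, 0.63 and 0.57 in CD25+, FOXP3lo and mature cells (adjusted p at most 0.0022). Zbtb4 was 1.13 ± 0.17 lower in CD25+ than in FOXP3lo progenitors (log2 fold change -1.13, adjusted p = 1.20e-04). In that comparison 0 of the 9 were called higher and 3 lower (9.93% and 9.17% of all genes). Against conventional cells 1 was higher and 2 lower in CD25+ progenitors (5.98% and 5.66%). The counts were 1 and 0 in FOXP3lo progenitors (4.88% and 3.83%) and 2 and 1 in mature Tregs (6.45% and 5.73%).

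Another list held 12 genes of, or related to, the cycle that supplies the methyl donor S-adenosylmethionine. Of these, 5 were called higher and 0 lower in CD25+ progenitors against conventional cells (Ahcyl2, Shmt2, Mthfd1, Shmt1 and Ahcy). Over all genes 5.98% were higher and 5.66% lower. On 12 libraries 6 were higher and 1 lower (29% of all genes in either direction). Ahcyl2, related to the hydrolase that clears S-adenosylhomocysteine, was 95.79 ± 8.89 CPM in conventional cells and 510.1 ± 20.94 CPM in mature Tregs, a rise of 2.41 ± 0.11 (adjusted p = 1.51e-10). Whether Ahcyl2 acts in the cycle was not tested. Mthfd1, a folate enzyme, was 2.1 ± 0.18 higher in CD25+ than in FOXP3lo progenitors (adjusted p = 2.02e-07). The 6 genes with textbook Treg-specific demethylated regions summed to 197.6 to 204.8 CPM in the conventional gate, 1649 to 1763 CPM in CD25+ progenitors, 1291 to 1489 CPM in the FOXP3lo gate and 3497 to 3769 CPM in mature Tregs. All 6 were called higher than in conventional cells in each of the 3 gates, where 5.98, 4.88 and 6.45% of all genes were, in that order. However, Foxp3 and Il2ra set the gates, so their part in these sums and in this count tests nothing. In mature Tregs their mean levels were 598 and 1152 CPM, where the mean sum was 3604 CPM. Ikzf2, encoding Helios, was not gated on and rose by 3.6 ± 0.15 in CD25+ progenitors (adjusted p = 3.07e-10), 2.64 ± 0.15 in FOXP3lo progenitors (adjusted p = 5.69e-09) and 3.59 ± 0.15 in mature Tregs (adjusted p = 1.25e-10). Its mean level was 1158 CPM in CD25+ progenitors and 1151 CPM in mature Tregs. The other genes not gated on were lower in CD25+ progenitors than in mature Tregs. In that order Ctla4 had 27.77 and 200.3 CPM, Ikzf4 85.79 and 207.3 CPM, and Tnfrsf18 142.2 and 296.7 CPM. Of the 6, 2 were called higher and 3 lower in CD25+ than in FOXP3lo progenitors (9.93% and 9.17% of all genes). The methylation of these loci was not measured.

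For each of the 9, genes with the most similar pattern over the 15 libraries were found by Pearson correlation of log2 CPM, with the value over the 12 Bst2-negative libraries beside it. Libraries of 1 gate lie together, so these values describe the order and spacing of 5 gates. Uhrf1 was closest to Ywhae (0.98 and 0.96), Mcm3, a helicase subunit (0.98 and 0.98), and Cdca7 (0.97 and 0.94). Dnmt1 was closest to the mitotic genes Bub1b (0.97 and 0.98) and Racgap1 (0.97 and 0.94) and to Marcks (0.96 and 0.92). Tet3 was closest to Sorl1 (0.98 and 0.97), Gatad2b, a NuRD subunit (0.98 and 0.98), and Plec (0.98 and 0.96). Tet2 was closest to Stx6 (0.93 and 0.92), the histone demethylase Kdm2b (0.91 and 0.97) and the SUMO protease Senp1 (0.91 and 0.92). Tet1 was closest to Hs3st3b1 (0.95 and 0.96), Vipr1 (0.95 and 0.96) and Slc20a1 (0.95 and 0.96).

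Genes close to Dnmt3a included Arntl (0.94 and 0.89) and Hivep1 (0.94 and 0.96), and Dnmt3b was closest to Plk4 (0.93 and 0.90), Hnrnpa3 (0.92 and 0.86) and U2af1 (0.92 and 0.84). The closest genes to Tdg were the histone demethylase Kdm1a (0.88 and 0.88), the cell death gene Bcl2l11 (0.85 and 0.89) and Hnrnpa0 (0.85 and 0.86), and those to Mbd2 Ccsap (0.92 and 0.87), Zfp729b (0.89 and 0.82) and Sbds (0.88 and 0.90). Among the 9 themselves, Dnmt1 and Uhrf1 had a correlation of 0.92 over 15 libraries and 0.86 over 12, and Tet2 and Dnmt3a 0.74 and 0.88.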

How the data were processed

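The deposited table holds whole-number counts of read pairs per Ensembl gene for 15 libraries, and each gene's exonic length in bases. Per the file headers, the authors counted with featureCounts 1.6.2 on Ensembl 97 (GRCm38), with strand setting 2 and mapping quality of at least 10. Per the submitters' processing notes, Trimmomatic 0.33 and HISAT2 2.1.0 were used, and the notes name featureCounts 1.4.6, another version than the header. Libraries were made with a stranded total RNA kit for low input (SMARTer Pico). The file gives gene IDs without symbols. Names were given by the overlap of whole gene spans with RefSeq genes of GRCm38.p6, without comparing exons or strand. In this way 35797 of 55573 genes were named, among them all 9 described and 168 of 170 list entries.

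Counts were fitted in edgeR 4.0.16 (R 4.3.3, limma 3.58.1) with filterByExpr, TMM factors, 5 gate means over all 15 libraries and robust quasi-likelihood tests. Benjamini-Hochberg adjustment ran over 16069 genes, and calls were made at adjusted p under 0.05. The SE is the log2 fold change divided by the root of its F statistic. CPM use TMM-scaled totals, and RPKM here is CPM per kilobase of exonic length. Correlations used log2 CPM with a prior count of 2. The pipeline was tested on simulated counts that had the same spread in every gate. That test does not cover the wider spread of the Bst2+ libraries. With 3 libraries a gate, leaving out 1 also lowers the precision of the shared spread.

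Same-numbered libraries of different gates had deviations correlated at -0.016 to 0.0423 over 30 pairs (mean 0.0107). For libraries of different numbers the mean was -0.00535 over 60 pairs. Correlations this low do not decide whether the numbers pair the samples. The main fit has no block, and the block is an alternative. Others were RLE factors, 2 other filters, DESeq2 1.42.0, limma-voom, leaving out the Bst2+ gate and leaving out each library. All 9 genes are named in every comparison. From each pathway list up to 3 called genes with the smallest adjusted p could be named. For each of the 9, the 3 most correlated named genes with a mean of at least 10 CPM are given, except 1 that is not reported here. The 9 genes and the lists were chosen with earlier results of these data known.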

Additional observations from a re-analysis of the deposited data

Results flagged for a closer look

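The difference in Tet2 between CD25+ and CD25- cells was not the same in gates without FOXP3 as in gates with it: the interaction was a log2 value of -1.18 ± 0.17 (edgeR's quasi-likelihood test, adjusted p = 5.17e-04). All 3 CD25+ progenitor libraries lay above all 3 conventional libraries, while mature Treg and FOXP3lo libraries overlapped. Over the 7 other settings and the 15 fits that left out 1 library the interaction was between -1.31 (without mature replicate 43) and -1.13 (without mature replicate 40), and Tet2 stayed called in each.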

How the results depend on the processing

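In no alternative did a fold change of these genes change sign where it was called. The number of the 9 called for the interaction, 1 as reported, was 2 with DESeq2, 3 with no filter, 4 with limma-voom and 4 without the Bst2+ libraries, and between 1 and 3 when 1 library was left out. Calls over all genes were 378 as reported and 644, 475, 1631 and 1698 in these fits, in that order. The fit with no filter tested 36307 genes, against 16069 as reported, so its 475 calls are a smaller share of the genes. With 1 library left out the calls over all genes were 222 to 743, and each such fit tested between 17121 and 17453 genes. For mature Tregs against conventional cells, 4 as reported, it was 7 with limma-voom, 7 without the Bst2+ libraries, and 2 to 5 with 1 library left out. There the calls over all genes went from 1957 to 4523, 4756 and 1342 to 3038. With 1 library left out the counts were 3 to 6 for CD25+ progenitors and 2 to 5 for FOXP3lo progenitors against conventional cells, 5 to 8 for CD25+ against FOXP3lo progenitors, 7 to 9 for mature Tregs against CD25+ progenitors, 2 for mature Tregs against FOXP3lo progenitors, and 7 to 8 for the Bst2+ gate. Over all genes the calls were then 1268 to 2925, 812 to 2338, 2228 to 4364, 1448 to 3321, 418 to 1465 and 6033 to 7658 in that order. With the replicate number as a block, the Dnmt3b value for mature Tregs against CD25+ progenitors (-0.87, adjusted p = 0.0356) became a call, and no other call of the 9 changed. Leaving the Bst2+ gate out removes its spread from the shared estimate and lowers the number of genes tested to 15648. Dnmt3b in every gate and Uhrf1 in FOXP3lo progenitors rest on the fewest counts.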
